A study of Mus musculus with 3 samples.

Results

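Axon guidance ligands and receptors were followed across 3 segments of the embryonic mouse gut. The set holds the netrins with their receptors Dcc, Neo1 and Unc5a to Unc5d, the Slits with the Robo receptors, the ephrins with the Eph receptors, and the semaphorins of classes 3 to 7 with the plexins and neuropilins. Members were taken by gene name from the expression table, which gave 71 features with 70 symbols out of 33762 features. Efna5 is listed under 2 overlapping identifiers, so its rows are not independent. The study profiled polyadenylated RNA of wild-type embryos of the strain given as Bl6/C57 at E13.5, with 1 sample each of the colon, the caecum and the presumptive ileum. The ileum is presumptive because it was cut as the last of 3 equal lengths of small intestine. Whether a sample held 1 embryo or several was not given in the sources used here.

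Guidance ligands are secreted or held on cell surfaces, and their receptors steer growth cones and migrating cells towards or away from them. Netrins attract through Dcc and repel through the Unc5 receptors, Slits repel through the Robo receptors, semaphorins act through plexins with neuropilins as co-receptors, and ephrins and Ephs signal in both directions where cells touch. In the fetal gut these systems act on neural crest cells as they colonise the wall and form the enteric nervous system, on incoming axons, and on blood vessels. Several of the same proteins are also made by mesenchyme and epithelium. The samples are whole segments of gut, so fewer cells of a type and less RNA per cell cannot be told apart.

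The ileum library held 50079916 counts, that of the caecum 64439972 and that of the colon 50773032. The 2 count columns deposited for a segment differed by less than counting noise, with a mean squared difference of 0.422, 0.449 and 0.438 times the counting variance, and were averaged and counted as 1 library. Folds are ratios of counts scaled between libraries, and the brackets behind them hold exact 95% Clopper-Pearson intervals. Those intervals cover counting error only. With 1 library per segment the spread between embryos is unknown, no test across samples was possible, and no difference here has a replicate check. Genes were called apart when their fold reached 2 and the higher library held 20 counts or more. Levels are compared between genes as RPKM, which scales reads to gene length and library depth. Positions are those of the deposited table in the mm9 build.

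All 71 features had at least 1 count in each segment, and 70 reached 20 counts in a library. The exception was Epha6, an Eph receptor whose ileum, caecum and colon libraries held 2, 4 and 4 counts. Of the 70, 17 were apart in at least 1 pair of segments, which is 24.3%, against 13.7% of all features that reached 20 counts. They included 5 of 10 members of the netrin system, 4 of 7 of the Slits and Robos, 5 of 23 Ephs and ephrins, and 3 of 31 semaphorins, plexins and neuropilins. By role, 7 of 36 ligand features and 10 of 35 receptors were apart. The other 53 stayed within 2-fold in every pair they could be compared in.

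**Figure D1:**
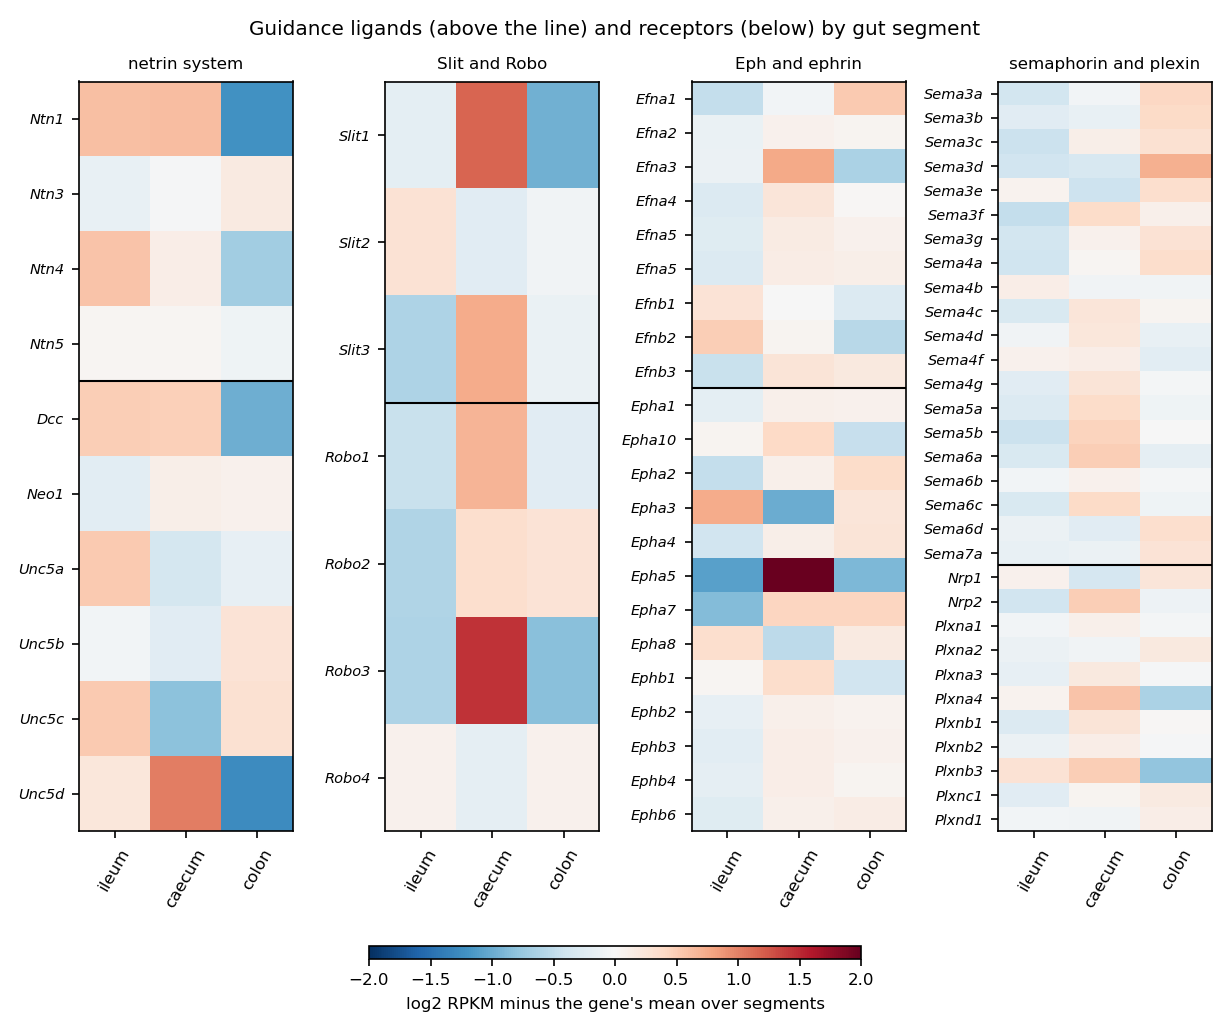
The colour gives log2 RPKM of a gene in 1 library minus its mean over the ileum, caecum and colon libraries, with ligands above and receptors below the line in each family. Epha5 and Robo3 stand out as dark in the caecum column, Ntn1, Dcc and Unc5d as low in the colon column, and Unc5c and Epha3 as low in the caecum column.

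Between the caecum and the ileum 8 of 70 members were apart, which is 11.4%, against 7.12% of all 17827 features compared. Epha5, Epha7, Robo1, Robo3, Slit1 and Slit3 were higher in the caecum, where the background in that direction was 4.57%. Epha3 and Unc5c were higher in the ileum, against a background of 2.55%. Between the caecum and the colon 12 of 70 members were apart, which is 17.1%, against 7.75% of all 17900 features. Epha5, Unc5d, Robo3, Slit1, Ntn1, Dcc, Efna3, Plxnb3 and Plxna4 were higher in the caecum, against 4.97%, and Sema3d, Unc5c and Epha3 were higher in the colon, against 2.78%. Between the colon and the ileum 8 of 69 members were apart, which is 11.6%, against 8.25% of all 17579 features. Here Epha7 and Sema3d were higher in the colon, against 4.05%, while Ntn1, Dcc, Unc5d, Ntn4, Plxnb3 and Efnb2 were higher in the ileum, against 4.2%. Counting a member only where its whole interval lay beyond 2-fold left 6 of 70 for caecum and ileum, against 3.49% of all features, 9 of 70 for caecum and colon, against 4.11%, and 5 of 69 for colon and ileum, against 4.34%. The comparisons share libraries, so a gene that is low in 1 segment enters 2 of them.

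Small differences also had a direction across the members. The caecum library held the highest scaled level of 38 of 70 members, or 54.3%, against 35.3% of all features with 20 counts. The ileum library held the lowest level of 41 members, or 58.6%, against 35.0% of all features. The colon library held the highest level of 19 members, or 27.1%, against 30.6%, and the ileum library of 13, or 18.6%, against 34.1%. Asking that the counting interval exclude no difference from both other segments left 26 members (37.1%) highest in the caecum, 16 (22.9%) in the colon and 8 (11.4%) in the ileum. The shares of all features were 17.4%, 12.1% and 15.8%. Intervals narrow as counts rise, so these last shares also depend on the depth of the genes compared. The median log2 difference of members was 0.29 for caecum over ileum, 0.06 for caecum over colon and 0.21 for colon over ileum. The same medians over all features compared lay within 0.01 of 0.

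**Figure D2:**
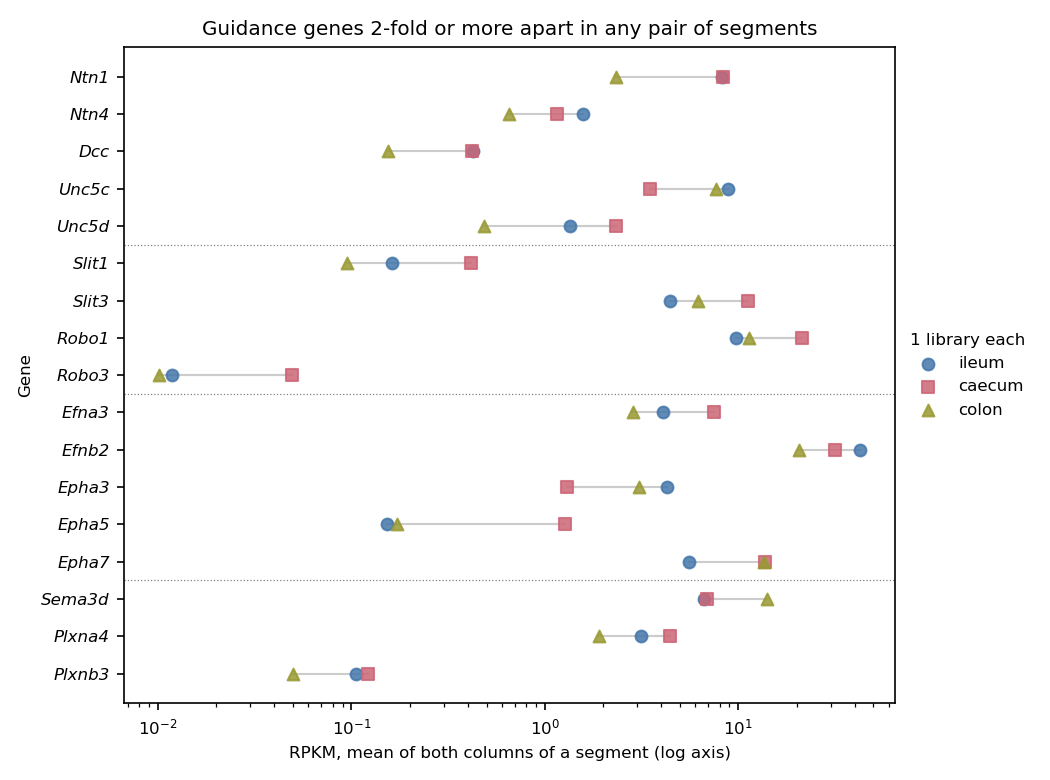
Points give RPKM on a log axis in the ileum (circles), caecum (squares) and colon (triangles) libraries for the 17 members 2-fold or more apart, with 1 library per segment. Among the genes whose caecum point lies to the right of both others are Slit1, Slit3, Robo1, Robo3, Epha5, Unc5d, Efna3 and Plxna4. It lies to the left of both for Unc5c and Epha3.

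Of the netrin ligands, Ntn1 and Ntn4 were lowest in the colon library and Ntn3 and Ntn5 stayed within 2-fold. Ntn1, the secreted netrin that draws commissural axons in the spinal cord and is made by gut epithelium and mesenchyme (chr11:68022866-68214325, minus strand), had 2581 counts in the ileum, 3365 in the caecum and 744 in the colon, or 8.21, 8.32 and 2.33 RPKM. The ileum and the caecum were alike and the colon stood below both. The ileum exceeded the colon by 3.56-fold (3.28 to 3.86) and the caecum did so by 3.55-fold (3.28 to 3.85). Ntn4, a netrin related to laminins that is found in basement membranes (chr10:93103426-93209952, plus strand), had 294, 279 and 124 counts, or 1.57, 1.16 and 0.653 RPKM. Its ileum level was 2.43-fold (1.96 to 3.02) that of the colon. The caecum lay between, at 1.77 times the colon level (1.42 to 2.20). Ntn3 stood at 5.12 to 6.46 RPKM, and Ntn5 had 29 counts at most. For Ntn5 the interval for ileum over colon ran from 0.594 to 2.13, so a 2-fold difference is not excluded. Sec1 shares 9989 bases with Ntn5 on the opposite strand and had 154, 110 and 95 counts. Part of Ntn3 lies in Tbc1d24 on the same strand, so reads there cannot be assigned to 1 gene with certainty.

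Dcc, the receptor through which netrin attracts (chr18:71418392-72510723, minus strand), showed the same order at a far lower level. It had 172, 218 and 63 counts, or 0.424, 0.418 and 0.154 RPKM. The ileum level was 2.80-fold (2.09 to 3.80) and the caecum level 2.72-fold (2.04 to 3.65) above the colon. Neo1, the Dcc relative that also binds repulsive guidance molecules, was the most abundant netrin receptor at 31.3, 39.5 and 38.6 RPKM and stayed within 2-fold. Ligand and receptor of the attractive pair were thus both lowest in the colon library, whereas Neo1 had its lowest level in the ileum.

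Of the repulsive netrin receptors of the Unc5 family, Unc5c and Unc5d ran in opposite directions for the caecum against both other segments. Unc5d (chr8:29757189-30329810, minus strand) had 604, 1352 and 219 counts, or 1.35, 2.34 and 0.482 RPKM. Its highest library was the caecum and its lowest the colon, 4.85-fold apart (4.20 to 5.62), and the ileum was 2.83-fold (2.42 to 3.31) above the colon. Unc5c (chr3:141128528-141497888, plus strand) had 5408, 2741 and 4746 counts, or 8.87, 3.49 and 7.68 RPKM. Here the caecum was the lowest library, with 2.58-fold (2.46 to 2.70) more in the ileum and 2.21-fold (2.10 to 2.31) more in the colon. Unc5b, a receptor known from blood vessels, lay within 2-fold at 5.49, 4.91 and 6.93 RPKM. Unc5a, known from neurons, lay within 2-fold as well, with 160, 112 and 100 counts, and its ileum level was 1.87 times that of the caecum (1.46 to 2.40).

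In sum over the family, netrin ligands came to 15.2 RPKM in the ileum, 15.3 in the caecum and 9.71 in the colon, and the 6 netrin receptors to 48.2, 51.1 and 54.3 RPKM. Neo1 made up most of the receptor sum, so it does not show the opposite courses of Unc5c and Unc5d. The promoter of Unc5c is shown because this gene and Epha3, shown further on, were the members apart with their lowest level in the caecum. The sequence is the 250 bases before the gene start from RefSeq in build GRCm38.p6, at chr3:141465314-141465563 on the plus strand, and coordinates of that build must not be set against those of mm9 above. Each promoter was searched on both strands, and capitals mark a match here and below. The letters searched were TATAAA for the TATA box, CCAAT for the box of that name, GGGCGG for the GC box, TTTATG for a CDX core, TAATTA for a homeodomain core, AGATAAG for a GATA site and CAGCTG for an E-box. None of these letters was found in this window, which is 71.2% G and C with 23 CpG.
Unc5c: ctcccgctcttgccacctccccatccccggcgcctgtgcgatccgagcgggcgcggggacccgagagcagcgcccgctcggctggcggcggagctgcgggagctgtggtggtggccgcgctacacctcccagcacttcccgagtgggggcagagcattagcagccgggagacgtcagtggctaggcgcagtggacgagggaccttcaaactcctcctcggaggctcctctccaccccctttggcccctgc

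Of the 4 families, Slits and Robos had the largest share of members apart with more in the caecum than the ileum, 4 of 7, beside 4.57% of all features. Robo1 and Slit3 had intervals wholly beyond 2-fold, whereas those of Slit1 and Robo3, which had few counts, were not. The median log2 difference of the family was 1.11 for caecum over ileum and 0.86 for caecum over colon, beside medians near 0 over all features. Summed RPKM of the 4 Robo receptors came to 18.3 in the ileum, 33.9 in the caecum and 24.1 in the colon, and that of the 3 Slits to 15.2, 19.1 and 14.6. The exceptions to this direction were Slit2 and Robo4.

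Slit3, a secreted repellent that is also made by mesenchyme and endothelium (chr11:34934726-35522009, plus strand), had 1344, 4403 and 1905 counts, or 4.42, 11.3 and 6.18 RPKM. The caecum stood above both other libraries, by 2.51-fold (2.36 to 2.67) over the ileum and 1.81-fold (1.72 to 1.92) over the colon. Slit1, the Slit best known from the central nervous system (chr19:41674747-41818155, minus strand), had 48, 159 and 29 counts, or 0.162, 0.415 and 0.0948 RPKM. Its caecum level was 2.54 times (1.83 to 3.58) that of the ileum and 4.304 times (2.88 to 6.63) that of the colon, at a level far below that of Slit3. Slit2 did not follow them, at 10.6, 7.38 and 8.28 RPKM with all pairs within 2-fold and the ileum highest. The most abundant Slit in RPKM therefore was Slit2 in the ileum and colon libraries and Slit3 in the caecum library.

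The promoter of Slit3, the Slit with the most counts that was apart, is shown by the same rule. It is taken from RefSeq at chr11:35121206-35121455 of GRCm38.p6, plus strand, and is 78.8% G and C with 35 CpG. Capitals mark 6 GC boxes, read here as CCGCCC on the printed strand, of which a pair overlaps by their shared letters. GGGCGG on either strand stood in 32.9% of the 27025 promoters of this length in the table and in 44 of the 60 member promoters found there.
Slit3: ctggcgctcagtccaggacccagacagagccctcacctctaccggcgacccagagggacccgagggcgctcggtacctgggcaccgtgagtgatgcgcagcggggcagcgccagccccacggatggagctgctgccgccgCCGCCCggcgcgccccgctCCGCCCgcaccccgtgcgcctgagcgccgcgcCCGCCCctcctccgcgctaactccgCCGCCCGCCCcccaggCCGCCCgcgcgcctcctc

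Of the receptors, Robo1 (chr16:72663394-73046340, plus strand) had 4667, 13197 and 5521 counts, or 9.76, 21.4 and 11.4 RPKM. Its caecum level was 2.17 times (2.09 to 2.24) that of the ileum and 1.88 times (1.82 to 1.94) that of the colon. Robo2, its partner as a Slit receptor on axons, had 4.86, 9.31 and 8.999 RPKM. For Robo2 the ileum was low and the caecum and colon were alike, with 1.89-fold (1.82 to 1.96) more in the caecum and 1.83-fold (1.76 to 1.90) more in the colon, so it missed the threshold. Robo3, the receptor that governs midline crossing of axons (chr9:37223254-37240760, minus strand), had 4, 22 and 4 counts, or 0.0118, 0.0492 and 0.0102 RPKM. Its folds of 4.21 (1.43 to 16.8) and 4.32 (1.47 to 17.2) for the caecum over the ileum and the colon rest on those few counts. Robo4, the Robo of endothelium, ends 1.65 kb from the end of Robo3, on the other strand of chromosome 9, and was level, with 3.68, 3.08 and 3.68 RPKM.

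Of 13 Eph receptors with 20 counts, 3 were apart in any pair, beside 13.7% of all features, and all were of class A. Whether the classes differ was not tested. All 5 Ephb receptors stayed within 2-fold, although Ephb4, which marks veins and binds ephrin-B2, was the second most abundant member of the whole set at 62.0, 77.2 and 72.7 RPKM. Of the 8 Epha receptors that reached 20 counts, Epha5, Epha7 and Epha3 were apart, Epha5 with 1 high library, the caecum, and Epha7 and Epha3 with 1 low library, the ileum and the caecum.

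Epha5, a receptor for ephrin-A ligands best known from topographic maps in the brain (chr5:84486816-84846407, minus strand), had 77, 822 and 88 counts, or 0.152, 1.27 and 0.173 RPKM. The caecum library stood far above the other two, which were alike. Its fold of 8.18 (6.47 to 10.5) over the ileum and 7.33 (5.88 to 9.24) over the colon was the largest of any member in both comparisons. The pseudogene Hmgn2-ps1 lies within the span of Epha5 on the opposite strand, with 7719, 9462 and 8082 counts in the order given for Epha5.

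Epha7, known from the closure of the neural tube and from axon repulsion (chr4:28740281-28894649, plus strand), had 2752, 8737 and 6853 counts, or 5.56, 13.7 and 13.7 RPKM. The ileum was the low library, with 2.43-fold (2.33 to 2.54) more in the caecum and 2.43-fold (2.32 to 2.54) more in the colon. Epha3, known from the heart cushions and from motor axons (chr16:63543364-63863984, minus strand), had 1218, 473 and 877 counts, or 4.296, 1.30 and 3.05 RPKM. For Epha3 the caecum was the low library, with 3.36-fold (3.02 to 3.75) more in the ileum and 2.36-fold (2.11 to 2.65) more in the colon. Close relatives of 1 receptor class thus had their highest level in different libraries. Epha4, which binds both classes of ephrin, lay within 2-fold at 5.45, 7.71 and 8.44 RPKM. The other Epha receptors above 20 counts, Epha1, Epha2, Epha8 and Epha10, were at 2.52 RPKM or less in each segment.

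The promoters of these 3 receptors, whose courses differed, are shown by the same rule. They are from RefSeq, build GRCm38.p6: Epha5 at chr5:84417383-84417632 on the minus strand, Epha7 at chr4:28812881-28813130 on the plus strand, the first of 2 windows listed, and Epha3 at chr16:63864176-63864425 on the minus strand. Capitals mark motif matches. In Epha5 these are TAATTA, 230 to 225 bases before the start, and 2 GC boxes (GGGCGG). In Epha7 they are ATTGG, which is a CCAAT box on the other strand, and CCGCCC, a GC box. In Epha3 they are CTTATCT, the GATA site AGATAAG on the other strand, 9 to 3 bases before the start. TAATTA stood in 4.9% of the 27025 promoters and in 3 of 60 member promoters, AGATAAG in 2.78% and in 1 of 60, and CCAAT in 34.5% and in 16 of 60. A match is a description of letters and shows no binding.
Epha5: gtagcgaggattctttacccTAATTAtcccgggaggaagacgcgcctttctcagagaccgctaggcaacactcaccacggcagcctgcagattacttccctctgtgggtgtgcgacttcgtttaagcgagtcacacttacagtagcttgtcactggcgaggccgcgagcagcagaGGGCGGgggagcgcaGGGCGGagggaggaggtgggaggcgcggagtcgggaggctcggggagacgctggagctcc
Epha7: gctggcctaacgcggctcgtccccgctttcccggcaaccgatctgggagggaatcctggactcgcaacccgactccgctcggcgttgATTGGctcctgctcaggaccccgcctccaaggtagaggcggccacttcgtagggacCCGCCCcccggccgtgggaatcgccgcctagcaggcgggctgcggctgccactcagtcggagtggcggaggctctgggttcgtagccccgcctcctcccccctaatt
Epha3: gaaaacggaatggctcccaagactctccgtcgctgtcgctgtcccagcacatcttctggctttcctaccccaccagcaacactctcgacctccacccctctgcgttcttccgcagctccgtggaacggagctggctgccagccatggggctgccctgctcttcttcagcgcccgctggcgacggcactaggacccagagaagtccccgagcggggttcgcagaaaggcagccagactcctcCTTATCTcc

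Of the 9 ephrin features, Efnb2 and Efna3 were apart in 1 pair each. Efnb2, the transmembrane ephrin that marks arteries and is also made by mesenchyme (chr8:8617434-8661239, minus strand), had 10214, 9732 and 4999 counts, or 42.6, 31.5 and 20.6 RPKM. It was the most abundant ephrin in the ileum and caecum libraries and stepped down towards the colon, with 2.09-fold (2.02 to 2.17) more in the ileum than in the colon. Efna3, a membrane-anchored ligand of Epha receptors (chr3:89117821-89126887, minus strand), had 495, 1175 and 352 counts, or 4.06, 7.49 and 2.85 RPKM. The caecum stood 2.62-fold (2.32 to 2.96) above the colon and 1.82-fold (1.64 to 2.02) above the ileum. Gm15998 overlaps Efna3 on the opposite strand with 81, 202 and 66 counts, and without stated use of strand their reads cannot be told apart.

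Efna1, Efna3 and Efna4 lie within 1 stretch of chromosome 3 on the same strand, with gaps of 32.8 kb and 10.4 kb, and each had its own order of segments. Efna1, which is made by endothelium among other cells, had 12.5, 16.7 and 24.9 RPKM. Its colon level was 1.97-fold (1.84 to 2.12) that of the ileum, just under the threshold. Efna4 had 8.71, 12.5 and 10.8 RPKM, with all pairs within 2-fold. The colon library was thus the highest for Efna1 and the lowest for Efna3, its neighbour.

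The semaphorins, plexins and neuropilins held the fewest members apart, and the secreted class 3 semaphorins shared a direction between colon and ileum. Sema3d, a class 3 semaphorin that repels axons and patterns vessels (chr5:12383166-12588943, plus strand), had 2296, 3066 and 4929 counts, or 6.61, 6.86 and 14.0 RPKM. The ileum and caecum were alike and the colon was 2.09-fold (1.99 to 2.20) above the ileum and 2.05-fold (1.96 to 2.14) above the caecum. Sema3a, which repels sensory and autonomic axons through neuropilin-1, had 10.5, 12.98 and 17.9 RPKM, and Sema3c, needed in the outflow tract of the heart, had 16.2, 23.7 and 26.8 RPKM. Their colon levels were 1.70-fold (1.64 to 1.76) and 1.63-fold (1.58 to 1.69) those of the ileum. All 7 class 3 genes had more in the colon library than in that of the ileum, with a median log2 difference of 0.65, and 6 of 7 had more than in that of the caecum. For colon over ileum the same direction held for 46 of 69 members and 8848 of 17579 features in all, and of class 3 only Sema3d was apart. Between caecum and colon, 45 of 70 members and 8868 of 17900 features had more in the caecum. Sema3f was the class 3 exception and was highest in the caecum, at 14.5 RPKM.

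Transmembrane semaphorins of classes 4 to 6 and the anchored Sema7a lay within 2-fold in every pair. Both class 5 genes and Sema6a, a transmembrane semaphorin read by class A plexins, were highest in the caecum. Sema6a had 14.5, 25.2 and 15.8 RPKM. Sema5a had 13.2, 20.6 and 14.9 RPKM. Sema6d ran another way, with 5.34, 4.93 and 7.26 RPKM and the colon highest. In sum, the 20 semaphorins came to 116, 165 and 159 RPKM.

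Among the receptors of semaphorins, Plxna4, the class A plexin of sensory and sympathetic neurons (chr6:32094565-32538192, minus strand), had 1968, 3581 and 1223 counts, or 3.12, 4.42 and 1.91 RPKM. The caecum was 2.30-fold (2.15 to 2.45) above the colon, and the ileum 1.65-fold (1.53 to 1.77). Plxnb3 (chrX:71002429-71017853, plus strand) had 35, 51 and 17 counts, or 0.106, 0.122 and 0.05005 RPKM, and its folds of 2.35 (1.34 to 4.35) for caecum over colon and 2.11 (1.15 to 4.02) for ileum over colon have wide intervals. The lowest level in the colon is what Plxna4 and Plxnb3 had in common. Plxnb2, a plexin that reads class 4 semaphorins, was the most abundant member of the set at 67.6, 79.8 and 71.8 RPKM. The neuropilins split: Nrp1, the co-receptor for Sema3a and for vascular growth factor, was lowest in the caecum at 15.0, 11.2 and 16.7 RPKM, and Nrp2, the co-receptor for Sema3f, was highest there at 16.5, 30.1 and 20.05 RPKM. Nrp2 reached 1.80-fold (1.76 to 1.85) for caecum over ileum and neither gene was apart.

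**Figure D3:**
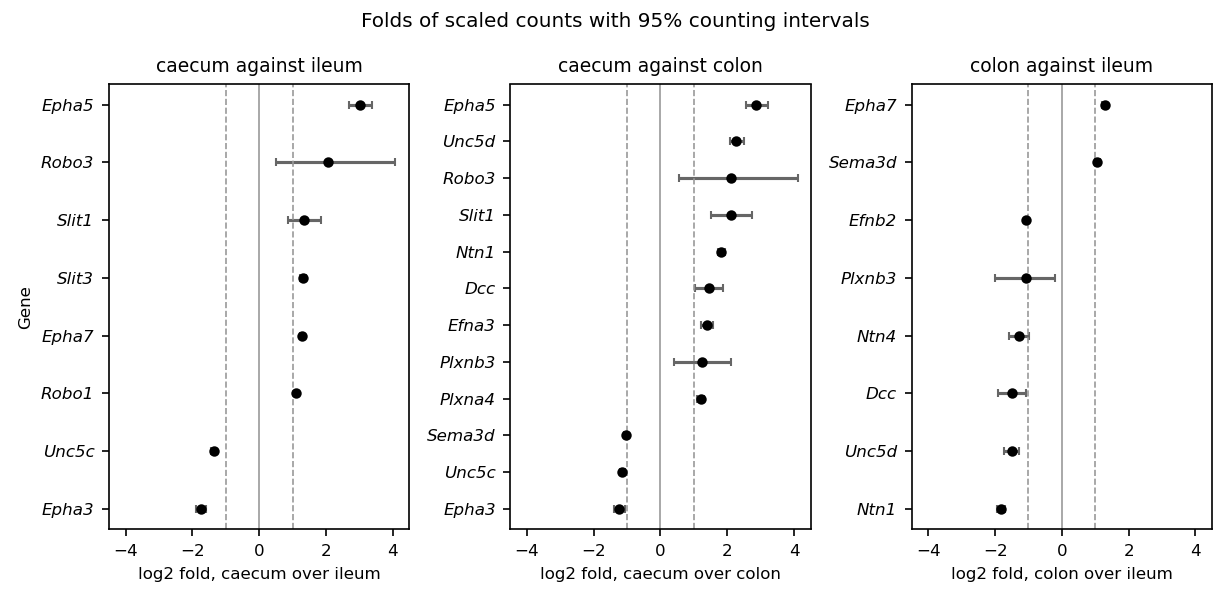
Folds of the members that were apart in each pair of segments are drawn as log2 folds with their 95% counting intervals, which hold no spread between embryos, and dashed lines mark 2-fold. Epha5 lies farthest from no difference in both comparisons with the caecum, and the widest intervals are those of Robo3 with 22 counts at most.

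Levels of cell type markers differed between the same libraries. Summed RPKM of 10 markers of enteric neurons was 177 in the ileum, 202.3 in the caecum and 99.5 in the colon. Against the colon, 6 of these 10 were apart and higher in the caecum, and 6 of 10 were apart and higher in the ileum, beside 4.97% and 4.2% of all features, with none apart and higher in the colon. Tlx2, a homeobox gene of enteric neurons, had 925, 678 and 71 counts. Ret, of the same list, had more in the colon than the ileum, at 20.9, 28.7 and 23.5 RPKM. Of 7 comparable markers of glia and crest progenitors, 4 were apart with more in the ileum than the colon and 2 with more in the caecum than the colon, beside the same shares of all features. Their median log2 difference was 0.19 for caecum over ileum, although the list summed to 120.1, 106.5 and 63.67 RPKM. Ednrb made up most of these sums, at 77.8, 64.0 and 38.7 RPKM. Erbb3, of the glia and crest list, had more in the colon than the ileum, at 8.98, 10.4 and 9.57 RPKM. The low colon sums of both lists stand beside the low colon levels of Ntn1, Dcc, Unc5d, Plxna4, Efna3, Plxnb3, Ntn4 and Efnb2. The part of these cell types in those results was not tested. Between the caecum and the ileum no neuron marker was apart, with a median log2 difference of 0.04. Single markers ran both ways. Uchl1 had 15.5 and 26.3 RPKM in the ileum and caecum, and Tlx2 had 11.6 and 6.62 RPKM. The part of neurons in the caecum levels of Epha5 and Slit1 was not tested either.

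Markers of mural cells differed in another way. Of 6 pericyte markers, Rgs5, Kcnj8 and Abcc9 were 2.97-fold to 6.43-fold lower in the caecum than in the colon or the ileum, where 2.78% and 2.55% of all features were apart in that direction. The other 3 were within 2-fold, and of these Notch3 was highest in the caecum, at 9.90, 12.1 and 11.0 RPKM. Cspg4 had 3.20, 2.80 and 2.52 RPKM and Pdgfrb 24.5, 15.7 and 24.7 RPKM. The list summed to 89.1, 43.0 and 84.1 RPKM. Of 8 smooth muscle markers, 5 were apart with more in the ileum than the caecum, beside 2.55% of all features, and 4 with more in the ileum than the colon, beside 4.2%. None was apart between caecum and colon, and Des was highest in the caecum, at 9.19, 12.8 and 8.23 RPKM. The list had sums of 1124, 443.8 and 606.2 RPKM. Epha3 and Unc5c were low in the caecum as well, and the part of either cell type in that was not tested. The endothelial list summed to 64.5, 64.2 and 78.2 RPKM, and of its 10 markers Lyve1 alone was apart in any pair. The epithelial list summed to 193.1, 193.4 and 225.7 RPKM, and of its 8 markers Krt19 alone was apart. Of all features with 20 counts, 13.7% were apart in any pair. The epithelial sum hid opposite courses. Krt19 rose from 22.3 RPKM in the ileum to 48.9 in the colon, and Cdx2 fell from 17.5 to 9.87. Cdh1, Krt8, Krt18 and Cldn3 also had more in the colon than the ileum, and Epcam and Cldn7 less. Mesenchymal markers summed to 749.6, 715.4 and 803.1 RPKM with Twist1 alone apart, and mesothelial markers to 36.2, 46.9 and 54.5 RPKM with Msln alone apart. Markers of striated muscle from neighbouring tissue summed to 0.935 RPKM at most, and Myod1 and Ckm were at 0 in the colon. Gut epithelium, mesenchyme, muscle, neurons and vessels were thus all represented in each of the 3 samples.

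**Figure D4:**
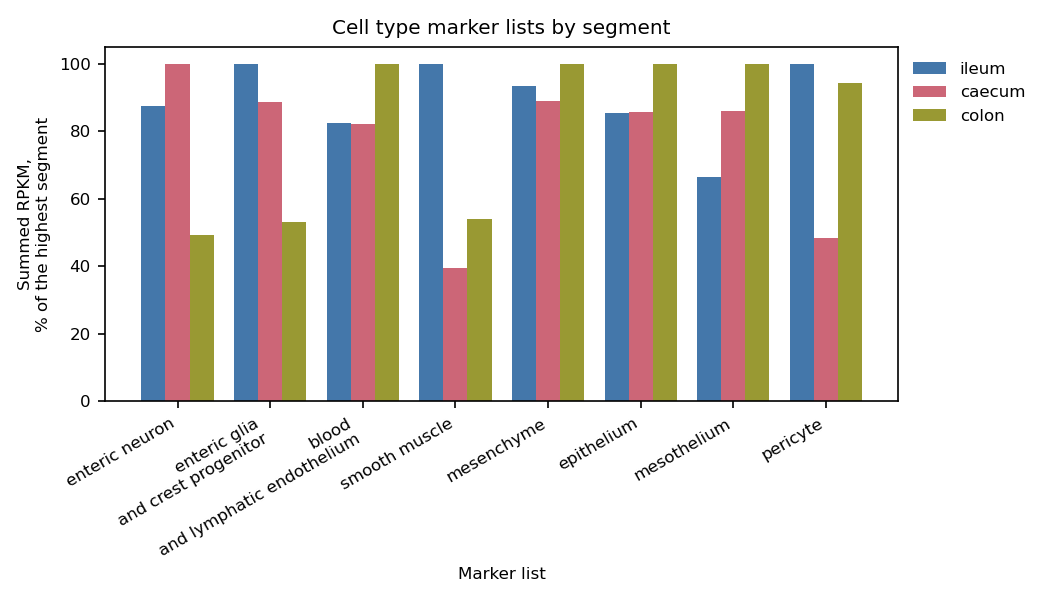
Bars give the summed RPKM of a list of cell type markers in the ileum, caecum or colon library (1 library each) as a percentage of the list's highest library. The enteric neuron list stands at 49.2% in the colon, and the pericyte and smooth muscle lists at 48.3% and 39.5% in the caecum.

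Genes that act beside these ligands and receptors were read from 3 lists. Among other ligands and adhesion partners, 3 of 18 features were apart between caecum and ileum, all higher in the caecum, where 4.57% of all features were. They were Cntn2, Nrcam and Chl1, adhesion proteins of the immunoglobulin family on axons, at 3.30-fold (2.63 to 4.17), 2.40-fold (2.19 to 2.65) and 2.30-fold (2.10 to 2.52). Against the colon 5 of 18 were apart with more in the caecum, beside 4.97% of all features, among them Cntn2 at 4.46-fold (3.46 to 5.81), Chl1 at 3.59-fold (3.22 to 4.002) and Islr2 at 2.92-fold (2.60 to 3.30). The lymphatic growth factor Vegfc ran the other way, at 2.42-fold (2.08 to 2.81) for colon over caecum. Between colon and ileum, 3 of 18 were apart with more in the colon, beside 4.05% of all features, namely Gdnf, which attracts enteric crest cells, at 2.15-fold (2.02 to 2.30), and both identifiers of Flrt3, a ligand of Unc5 receptors, at 2.28-fold (1.76 to 2.98) and 2.80-fold (2.64 to 2.98). Dscam, a netrin receptor in some neurons, was at 2.38-fold (1.46 to 3.97) for ileum over colon.

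None of 14 other receptors and co-receptors was apart in any pair, among them Met, Ret, Gfra1 and Cxcr4, and at those same background shares a count of 0 in so short a list is near the background. Of 50 features for cytoplasmic proteins that carry guidance signals, 1 was apart between caecum and ileum, 5 between caecum and colon and 1 between colon and ileum, beside 7.12%, 7.75% and 8.25% of all features. The list as a whole was thus near or below the background. Dpysl5, a collapsin response mediator of young neurons, had 1184, 3822 and 815 counts. Its caecum level exceeded the ileum by 2.47-fold (2.32 to 2.64) and the colon by 3.68-fold (3.41 to 3.97). Srgap3, a Slit-Robo GTPase activating protein, and Pak3, a kinase downstream of Rac, stood at 2.17-fold (2.05 to 2.29) and 2.28-fold (1.97 to 2.64) for caecum over colon. Ngef, an exchange factor that acts downstream of Eph receptors, ran the other way with 123, 265 and 532 counts. Its colon level was 4.22 times (3.46 to 5.18) that of the ileum and 2.56 times (2.20 to 2.98) that of the caecum.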

How the data were processed

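The authors' deposited table was used, which per the file headers holds expected counts and RPKM, with 2 columns of each for every segment, labelled as replicates of 1 sample. The deposited expected counts hold fractions of 0.5 in places. RPKM values are the authors', scaled to gene length and library depth, and were averaged over both columns. Bowtie 0.12.7, DESeq and mm9 are named in the submitters' processing notes. How reads were assigned to genes, from which annotation and with or without strand, was not given in the sources used here. Per the labels' protocols, TruSeq libraries were read as paired ends of 100 bp.

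Count columns were averaged and rounded. Libraries were scaled by TMM (edgeR 4.0.16, R 4.3.3) over features with at least 20 counts in a library. Each fold divides the scaled counts of one library by those of another. Its 95% interval is the exact Clopper-Pearson one for the share of both libraries' counts, computed with scipy 1.17.1. The procedure was tested on simulated data. Members and lists were chosen with earlier results of these data known. Every member apart in any pair was named with its counts and RPKM in each segment, the rest by family, and of each pathway or marker list up to 4 genes with the intervals farthest from no difference. Genes named as examples within 2-fold were picked after their values were seen. The lists hold 152 entries, of which 151 were matched by symbol, and Draxin was not matched. Promoters are those of RefSeq, which matched 60 of 70 symbols. Dcc, Efnb3, Ntn1, Plxna1, Plxna4, Sema3b, Sema3f, Sema6a, Slit1 and Unc5d were not among the matched symbols.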

Additional observations from a re-analysis of the deposited data

How the results depend on the processing

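No paired analysis was possible because each segment has 1 sample, and no replicate could be left out. The counts of members apart stayed within 1.5 times their values under RLE scaling, total counts, either column alone, RPKM or a 100-count minimum. Members highest in the caecum ran from 35 to 40 under alternatives chosen after the data were seen. All these settings reuse the same libraries, and the 2 columns of a segment differed by less than counting noise. Little change could therefore arise, and the agreement is no independent check. The fold of Plxnb3 between ileum and colon was 1.92 with the second column alone. At a fold of 1.5, 20 of 70 members were apart between caecum and ileum, 16 higher in the caecum and 4 in the ileum. The shares of all features in those directions were 9.24% and 5.96%. Between caecum and colon 21 of 70 were apart (16 and 5), beside 9.34% and 6.04%. Between colon and ileum 21 of 69 were apart, 12 of them higher in the colon, beside 8.07% in that direction and 7.77% in the other. With the interval wholly beyond 2-fold, 5 members were apart between colon and ileum, beside 4.34% of all features. Of these, 1 was higher in the colon, beside 1.98%. All features apart, in the order caecum and ileum, caecum and colon, colon and ileum, numbered 1269, 1387 and 1451 in the report. They numbered 4318, 4636 and 4643 with no minimum, 705, 800 and 803 at 100 counts, 623, 736 and 763 with the interval beyond 2-fold, and 2709, 2753 and 2784 at a fold of 1.5. Fewer features pass a stricter minimum or fold by construction. Depth limits Robo3, Plxnb3, Epha6, Epha10 and Ntn5, which had 51 counts or fewer.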

Other observations

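Some pairs of members lie close together in mm9 outside the Efna1 to Efna4 stretch. Ephb2 and Epha8 on chromosome 4 are 93.4 kb apart with 3 features between them, and Ephb2 was level at 7.62 RPKM in the ileum, 9.21 in the caecum and 8.99 in the colon, while Epha8 had 93, 66 and 84 counts. Sema3b and Sema3f on chromosome 9 are 72.3 kb apart, also with 3 features between them. Sema3b had 1.98, 2.09 and 3.04 RPKM with the colon highest, and Sema3f had 8.02, 14.5 and 12.1 RPKM with the caecum highest.

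The genes Slit2 and Slit3 hold the microRNA genes Mir218-1 and Mir218-2 within their spans. Each of these was listed with 1 count in the ileum, 0 in the caecum and 1 in the colon, and polyadenylated libraries of this kind do not measure mature microRNAs.

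Member promoters had a median of 64.8% G and C and 16 CpG, over 60 windows, against 52.0% and 6 CpG over 27025 promoters of the table. The letters TTTATG, a CDX core, stood in 11.1% of all promoters and in 0 of the 60, and CAGCTG in 12.8% and in 9. TATAAA stood in 13% of all promoters and in 2 of the 60.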
